A study of Mus musculus with 56 samples.

Results

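The genes described here are the integrins and laminins, chosen by symbol from a table of 14870 genes measured in the mouse tibialis anterior, which lifts the foot. The 33 genes reported have a symbol that begins with Itga, is Itgb with 1 digit, or is Lama, Lamb or Lamc with 1 digit: 25 integrins and 8 laminins. The 4 leukocyte integrins Itgam, Itgal, Itgax and Itgb2 are described apart from the other genes. Other genes that fit the same symbol rule were not analysed here. The study measured RNA in whole muscle of wild-type mice (WT) and of mice heterozygous (HET mKO) or homozygous (HOMO mKO) for a titin mechanical knock-out allele, in which the sarcomere spring titin carries a cleavage site for TEV protease. Each muscle received saline (NaCl) or an adeno-associated virus (AAV) encoding GFP fused to TEV protease, and none of these groups received a virus without the protease. WT and HOMO mKO muscles were taken 3, 7 and 21 days post injection (dpi) and HET mKO muscles at 7 dpi. The 56 samples form 14 groups, each of 3 to 5. The labels give no age, sex or transgene promoter, and do not say that each sample is a different mouse. P-values therefore measure only the spread between these samples, which may be technical.

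Integrins are surface receptors made of an alpha and a beta chain that tie the cytoskeleton to the matrix or to other cells. Laminins are trimers of an alpha, a beta and a gamma chain and form a sheet of the basement membrane around muscle fibres, vessels and nerves. In muscle fibres the main laminin receptor pairs the chains of Itga7 and Itgb1, with force passing from laminin built on the Lama2 chain into the fibre. Leukocytes carry integrins that share the beta 2 chain of Itgb2 and differ in the alpha chain, and textbooks place these chains on blood-derived cells.

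Itgam and Itgax lie next to each other on chromosome 7, 11.1 kb apart, with Itgal 727.5 kb away, and both rose after AAV. In the GRCm38 annotation (GENCODE) Itgam spans chr7:128062640-128118491, Itgax chr7:128129547-128150657 and Itgal chr7:127296260-127335138, all on the + strand, and Itgb2 lies at chr10:77530252-77565708. Of the genes described most closely among the others, Itga7 lies at chr10:128933818-128958282, Itga6 at chr2:71745616-71858416 and Itgb1 at chr8:128685654-128733200. The 250 bases before the RefSeq start of Itgam and Itgax (GRCm38.p6) are shown. These neighbours both rose in HOMO mKO AAV muscle, but by different amounts on each day. Every GAGGAA on either strand is in capitals, the core letters read by the myeloid factor PU.1.
Itgam (chr7:128062390-128062639, + strand): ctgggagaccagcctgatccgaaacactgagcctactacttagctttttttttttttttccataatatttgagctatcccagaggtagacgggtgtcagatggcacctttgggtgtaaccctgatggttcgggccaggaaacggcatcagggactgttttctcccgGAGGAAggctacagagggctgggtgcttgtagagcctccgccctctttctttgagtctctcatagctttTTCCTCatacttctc
Itgax (chr7:128129300-128129549, + strand): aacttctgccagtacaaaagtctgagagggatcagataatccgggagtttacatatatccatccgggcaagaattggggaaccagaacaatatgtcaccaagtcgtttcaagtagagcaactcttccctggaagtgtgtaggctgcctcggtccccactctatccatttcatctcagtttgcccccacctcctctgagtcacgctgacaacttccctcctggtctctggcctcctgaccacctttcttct
The Itgam window holds 2 matches and the Itgax window 0. The same letters occur in 23.3% of 32851 RefSeq mouse promoter windows of 250 bases, so a match is not rare. Of the 23 members that had a promoter sequence, 13 held a match in any window. That count is of genes, and Itga3, Itgb6 and Lamb3 have more than 1 window, so it is not like the share of windows. The Itgax window holds 1 match to TGANTCA, letters read by AP-1 factors, which 6.75% of all windows hold. Presence or absence of these letters describes the windows and not the binding of a factor.

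Levels are normalised counts, scaled per-million of an adjusted library size. CPM (counts per-million of the library), used for the minimum level, take the plain sum of reads instead. In HOMO mKO muscle at 21 dpi the adjusted size was 1.114 to 1.494 times the plain sum in AAV samples. In saline samples of that day it was 0.867 to 0.92 times. In HOMO mKO muscle at 3 dpi the AAV samples had 1.057 to 1.227 times and saline samples 0.934 to 0.958 times. At 7 dpi they had 1.164 to 1.282 and 0.893 to 0.939 times. HET mKO muscle had 1.008 to 1.112 and 0.859 to 0.893 times, and WT muscle at 21 dpi 1.008 to 1.192 and 0.877 to 0.897 times. In all these comparisons levels were thus lowered against CPM in AAV muscle and raised in saline muscle. Whether small changes hold on CPM was not tested. Responses are log2 changes of AAV over saline muscle on log2(value + 1), with the standard error (SE) of the limma fit. P-values were adjusted over all 13017 genes tested by the Benjamini-Hochberg method. A gene was called at an adjusted p under 0.05. Of the 33 genes 30 were tested. Itgae, Itga2 and Itga2b had a mean under 1 CPM and were not, and Itgb8 passed that minimum through its highest group only. The libraries held 6.9 to 27.15 M reads, with a median of 21.69 M. The shallowest was HOMO mKO AAV sample 2 at 7 dpi, and the next held 14.98 M. The labelled tissue showed in its fast fibre markers (Acta1, Ckm, Myh4, Mylpf, Tnnt3 and Pvalb), whose summed level was 40735 or more in every sample. The viral transgene averaged 49.4, 22.4 and 640 in HOMO mKO AAV muscle at 3, 7 and 21 dpi, and 17.2, 240 and 756 in WT AAV muscle. It averaged 86.6 in HET mKO AAV muscle. At 7 dpi its levels differed between genotypes without overlap, at 14.3 to 29.0 in HOMO mKO, 56.9 to 113.6 in HET mKO and 157.9 to 323.6 in WT muscle. HOMO mKO and WT samples overlapped at 3 dpi (31.2 to 80.6 and 3.3 to 48.4) and at 21 dpi (127.4 to 1102.7 and 110.9 to 1266.7).

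In HOMO mKO muscle AAV changed 18 of 30 genes at 3 dpi, beside 34.6% of all genes tested. Of these 8 were higher (17.4% of all genes) and 10 lower (17.2%). At 7 dpi 12 were called (43.1% of all genes), 8 higher (20.6%) and 4 lower (22.5%), and 11 without the shallowest library, AAV sample 2. At 21 dpi 19 were called (59.3% of all genes), 13 higher (29.7%) and 6 lower (29.6%). The members' share lay above that of all genes at 3 dpi, slightly below it at 7 dpi and near it at 21 dpi. In WT muscle limma called 0 members at 3 dpi and 0 at 7 dpi, where 0% of all genes passed. At an unadjusted p under 0.05 these comparisons held 430 and 210 genes and 1 member each, Itgb2. On recovered reads edgeR called 0 and 0 genes and DESeq2 8 and 7, with 0 members by either. At 21 dpi 18 members were called in WT muscle (40.9% of all genes), 11 higher (19.7%) and 7 lower (21.3%), and 10 without AAV sample 4. In HET mKO muscle at 7 dpi 17 were called (40.4% of all genes), 11 higher (19.6%) and 6 lower (20.8%).

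**Figure D1:**
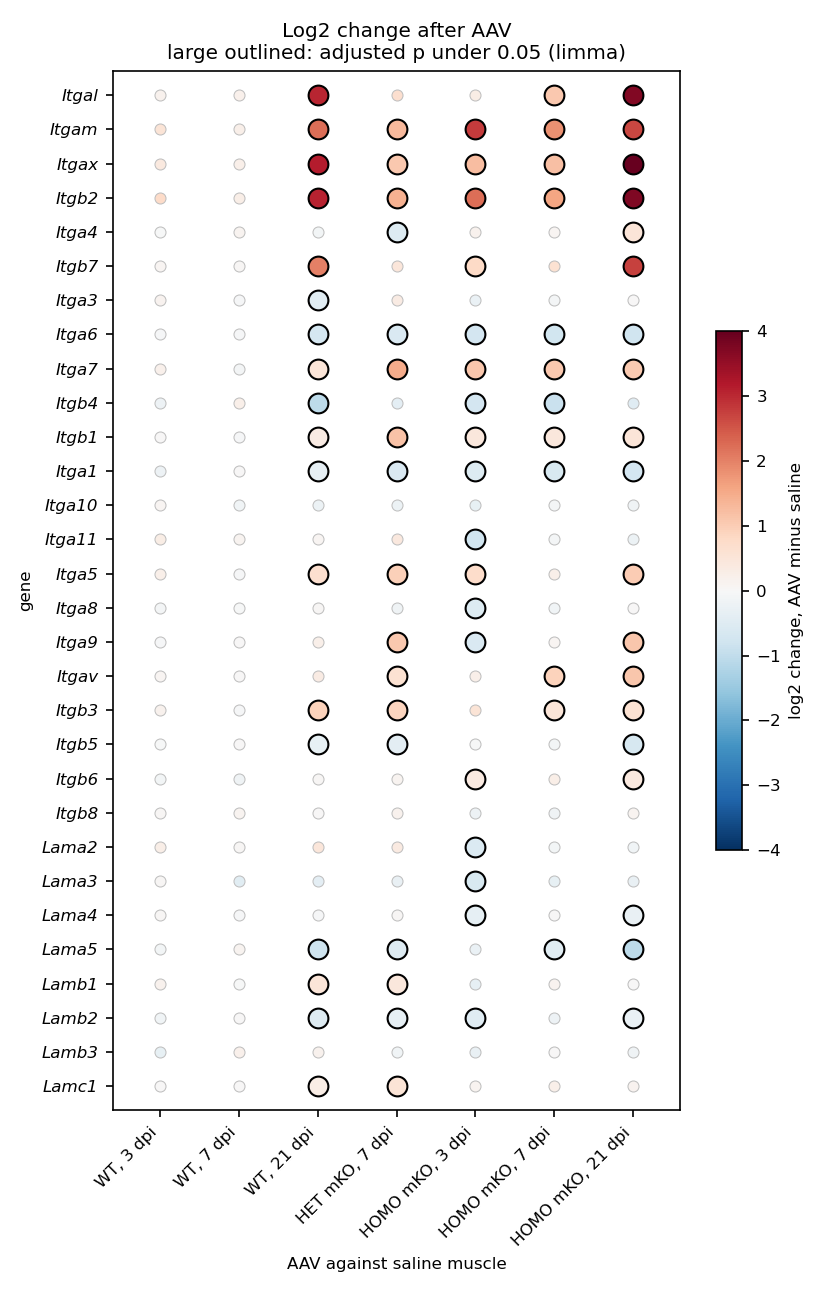
Log2 change of AAV over saline muscle (colour scale) for the 30 tested genes (rows) in the 7 comparisons within a genotype and day (columns); large outlined circles passed an adjusted p under 0.05 with limma. The first 2 columns, WT at 3 and 7 dpi, hold 0 outlined circles, and the 4 leukocyte integrins at the top are outlined in all 4 rows in HOMO mKO muscle at 7 and 21 dpi and in WT muscle at 21 dpi.

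On each day in HOMO mKO muscle the highest log2 change of any member was that of a leukocyte integrin, Itgam at 3 and 7 dpi and Itgax at 21 dpi. Itgam, the alpha chain of Mac-1 on macrophages, monocytes and neutrophils, measured 5.46, 1.79, 4.12 and 2.39 in HOMO mKO saline muscle at 3 dpi. After AAV it measured 23.9, 39.6, 41.2 and 16.2. Every AAV sample lay above every saline sample, a log2 change of 2.80 ± 0.36 (SE), adjusted p = 1.13e-07. Itgb2, the shared beta 2 chain, measured 3.88, 2.18, 3.69 and 2.93 in saline and 17.4, 29.5, 23.4 and 9.51 in AAV muscle on that day. The groups did not overlap here either, with a log2 change of 2.24 ± 0.35 (SE), adjusted p = 3.69e-06. Itgax, the alpha chain CD11c on dendritic cells and some macrophages, measured 1.34, 0.366, 1.02 and 0.618 in saline and 2.49, 5.12, 4.65 and 1.67 in AAV muscle (1.24 (adjusted p = 0.00415) on the log2 scale). Itgal, the alpha chain of LFA-1, which T cells carry at high level, measured 1.34, 1.96, 2.36 and 1.42 in saline and 2.83, 3.71, 2.59 and 1.04 in AAV muscle. These ranges overlapped, and the log2 change of 0.31 ± 0.32 (SE), adjusted p = 0.487 missed the threshold (95% interval -0.34 to 0.95).

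At 7 dpi all 4 leukocyte integrins were called in HOMO mKO muscle (43.1% of all genes). Unlike at 3 dpi, when Itgal overlapped, no AAV sample of the 4 genes reached down into the saline range. How many of all genes had groups likewise apart was not counted on either day. Itgam measured 2.64, 1.31, 1.71 and 3.07 in saline and 8.99, 8.69, 9.21, 9.85 and 13.8 in AAV muscle. Itgb2 measured 2.77, 1.88, 2.38 and 2.62 and 7.46, 9.3, 6.42, 11.3 and 12.7. The log2 changes were 1.82 (adjusted p = 3.47e-05) for Itgam and 1.59 (adjusted p = 0.00016) for Itgb2. They were 1.19 (adjusted p = 0.00271) for Itgax and 1.07 (adjusted p = 0.00397) for Itgal. By 21 dpi the changes of Itgal, Itgax and Itgb2 were above that of Itgam. Itgal measured 1.72, 0.395, 1.18 and 0.763 in saline and 49.7, 17.7, 34.3 and 11.5 in AAV muscle (3.70 ± 0.32 (SE), adjusted p = 4.47e-13 on the log2 scale). Itgax measured 0.198, 0.229, 0.353 and 0.458 and 41.5, 18.1, 25 and 9.3 (4.05 ± 0.34 (SE), adjusted p = 2.12e-13). Both alpha chains stood above all saline samples, with a wide spread between AAV samples. Itgb2 measured 2.86, 1.6, 1.85 and 0.414 in saline and 82.2, 23.4, 44 and 12.5 in AAV muscle (3.73 (adjusted p = 3.65e-12)). Itgam measured 2.01, 2.18, 1.14 and 0.85 and 48.7, 9.8, 16.1 and 5.8 (2.67 (adjusted p = 2.26e-08)). Between 7 and 21 dpi the HOMO mKO response grew by 2.86 (adjusted p = 3.84e-05) for Itgax, 2.63 (adjusted p = 5.13e-05) for Itgal and 2.14 (adjusted p = 0.00222) for Itgb2. The difference for Itgam, 0.85 (adjusted p = 0.265), missed the threshold.

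**Figure D2:**
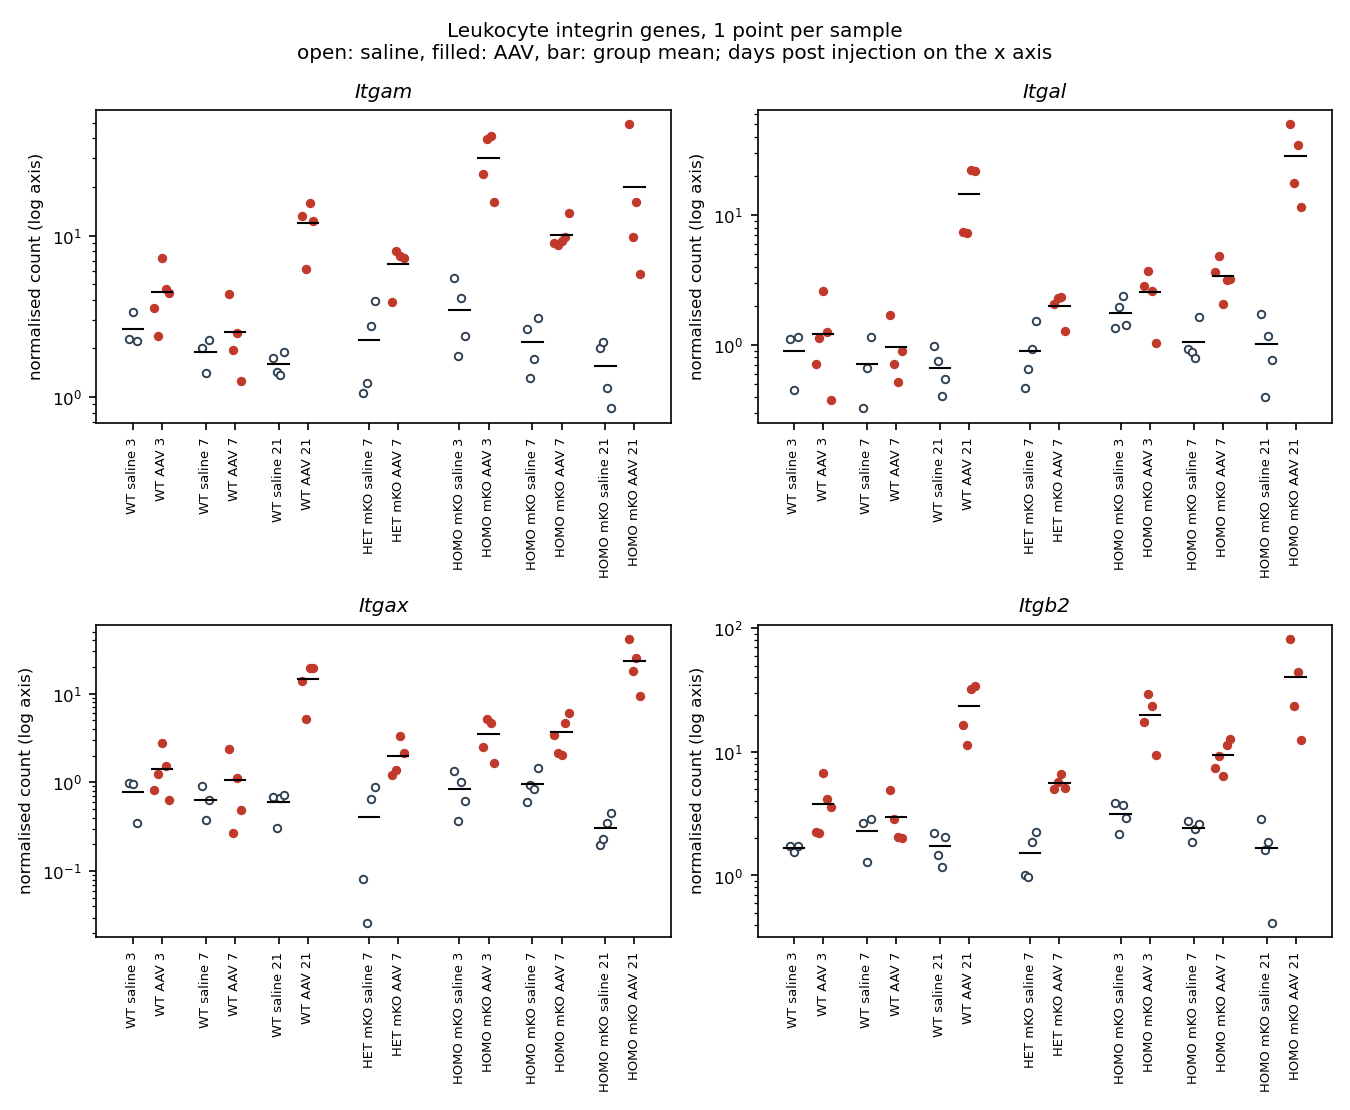
Normalised counts (log axis) of the 4 leukocyte integrin genes in each sample, by genotype, treatment and days post injection; open points are saline, filled points AAV, and bars are group means. Itgam already stands apart from saline in HOMO mKO AAV muscle at 3 dpi (mean 30.2 against 3.44), and Itgal only later (mean 28.3 against 1.02 at 21 dpi).

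The relative amounts of the alpha chains that pair with beta 2 changed as well. Per kilobase of exon, Itgam made up 58.7% ± 8.36 (SD) of the summed level of Itgam, Itgal and Itgax in HOMO mKO saline muscle at 3 dpi and 84.6% ± 1.76 after AAV. Its share in AAV muscle was 61.6% ± 5.57 at 7 dpi and 27% ± 6.95 at 21 dpi, when Itgal held 33.9% and Itgax 39.1%. WT AAV muscle at 21 dpi had like shares of 32.6% for Itgam, 28.7% for Itgal and 38.7% for Itgax. These shares are descriptions without a test, and saline shares rest on few reads. In bulk samples fewer or more cells of a type and less or more RNA per cell cannot be told apart. Macrophage markers moved alongside, 7 of 7 being higher after AAV in HOMO mKO muscle on each day. Over all genes 17.4%, 20.6% and 29.7% were higher at 3, 7 and 21 dpi. Their summed level was 49 to 119 in saline and 244 to 666 in AAV muscle at 3 dpi, and 26.3 to 68.3 and 199 to 1756 at 21 dpi. T and NK cell markers were higher in 0 of 5 at 3 dpi, 4 of 5 at 7 dpi and 5 of 5 at 21 dpi. Their summed levels in AAV muscle were 0.569 to 1.72, 2.22 to 10.3 and 29.7 to 102 on these days. The part of either cell type in the integrin levels was not tested. Markers of neutrophils, dendritic cells and B cells are not described here, and the part of those cells was not tested either.

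**Figure D3:**
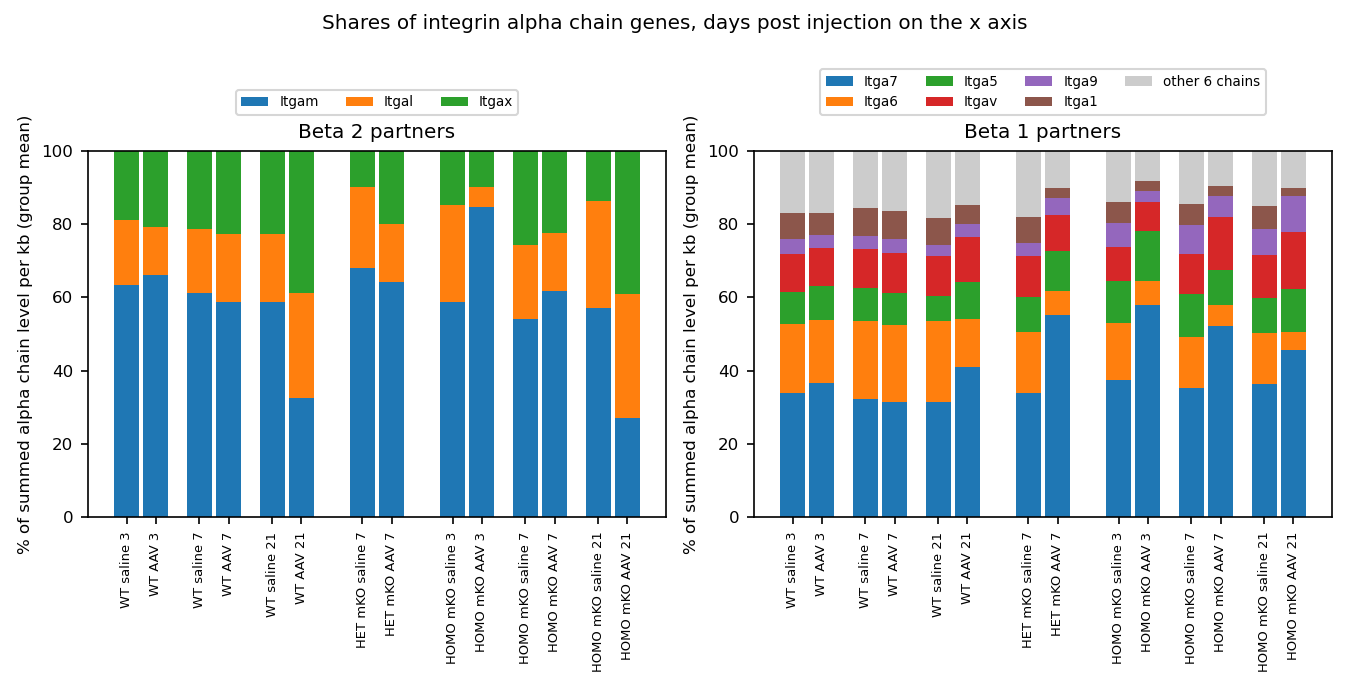
Share of each alpha chain gene in the summed level per kilobase of exon, as group means in percent, for the partners of beta 2 (left) and for 12 chains that can pair with beta 1 (right), by genotype, treatment and days post injection. On the left Itgam falls from 84.6% to 27% over the HOMO mKO AAV groups; on the right Itga7 takes 57.9% in HOMO mKO AAV muscle at 3 dpi against 37.3% in saline muscle.

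In WT muscle the leukocyte integrins rose at 21 dpi. At 21 dpi Itgal measured 0.979, 0.751, 0.403 and 0.542 in saline and 7.39, 7.3, 22.1 and 21.7 in AAV muscle. Itgam measured 1.74, 1.42, 1.37 and 1.91 and 13.2, 6.2, 15.8 and 12.3. All 4 genes were called, on a day when 40.9% of all genes were called, with log2 changes of 3.14 for Itgax, 3.07 for Itgb2, 3.06 for Itgal and 2.24 for Itgam. The groups did not overlap for any of the 4 genes. The share of all genes with groups that did not overlap was not counted, here or in the other comparisons. Differences between the HOMO mKO and WT responses were tested in the same fit. Of the 30 genes 4 passed at 3 dpi (9.75% of all genes), 8 at 7 dpi (20.2%) and 1 at 21 dpi (5.62%). Among leukocyte integrins only Itgam passed, by 2.25 ± 0.52 (SE), adjusted p = 0.00438 at 3 dpi and 1.61 ± 0.52 (SE), adjusted p = 0.0239 at 7 dpi, and the second ended with edgeR (adjusted p = 0.0585; adjusted p up to 0.0599 without any 1 of 4 samples). Itgb2 came near at both days with 1.49 (adjusted p = 0.0516) and 1.33 (adjusted p = 0.055). At 21 dpi the difference for Itgax was 0.91 (adjusted p = 0.289), with a 95% interval of -0.07 to 1.88. In HET mKO muscle at 7 dpi Itgam measured 1.06, 1.23, 2.74 and 3.93 in saline and 3.89, 8.03, 7.44 and 7.26 in AAV samples, which overlapped. Itgam, Itgb2 and Itgax were called there with log2 changes of 1.30, 1.41 and 1.09. A pseudocount of 4 ended the Itgax call (adjusted p = 0.109).

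Further integrins of lymphocytes and myeloid cells were Itgb7, Itga4 and Itgae. Itgb7, the beta chain of gut-homing and mucosal lymphocyte integrins, measured 0.933, 1.31, 1.76 and 0.371 in HOMO mKO saline and 22.7, 11, 15.8 and 6.16 in AAV muscle at 21 dpi (2.74 ± 0.30 (SE), adjusted p = 1.84e-10 on the log2 scale), without overlap. Its WT response on that day was 2.03 (adjusted p = 7.35e-07), and its HOMO mKO response grew by 2.13 (adjusted p = 0.000421) from 7 to 21 dpi. Itga4, a partner of both Itgb7 and Itgb1 on lymphocytes and on developing muscle, changed less than Itgb7 on day 21. Its log2 change was 0.52 (adjusted p = 0.0186) in HOMO mKO muscle at 21 dpi, where samples overlapped, and -0.55 (adjusted p = 0.021) in HET mKO muscle. Both calls ended on leaving out samples (adjusted p up to 0.117 without any 1 of 4 samples, and adjusted p up to 0.0812 without any 1 of 3 samples). Itgae, the partner of Itgb7 on tissue-resident T cells, was not tested and averaged 0.551 in HOMO mKO saline and 1.59 in AAV muscle at 21 dpi.

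Among the muscle adhesion genes, the laminin receptor alpha chains Itga7 and Itga6 went in opposite directions on every day in HOMO mKO muscle. Itga7 measured 115, 109, 129 and 95 in saline and 316, 228, 274 and 174 in AAV muscle at 3 dpi. On day 7 it measured 109, 89.7, 86.3 and 88.4 in saline and 202, 233, 193, 213 and 160 in AAV muscle. On day 21 the values were 112, 85, 84.2 and 80.8 and 196, 175, 189 and 194. All AAV samples were above all saline samples of the same day, and the log2 changes were 1.11 ± 0.17 (SE), adjusted p = 2.62e-06 at 3 dpi, 1.09 at 7 dpi and 1.06 at 21 dpi. Itga6, the laminin receptor chain of vessels, nerve sheath and satellite cells, measured 45.6, 54.2, 56.8 and 50.6 in saline and 27.4, 37.8, 27.1 and 30.3 in AAV muscle at 3 dpi. The 7 dpi values were 38.4, 42, 37.3 and 43.4 and 25.7, 16, 23.8, 26.1 and 26.4. The 21 dpi values were 35, 41, 33.3 and 43.4 and 24.7, 19.9, 17 and 25.9. All AAV samples were below all saline samples of the same day, with log2 changes of -0.75 ± 0.15 (SE), adjusted p = 0.00011 at 3 dpi, -0.77 at 7 dpi and -0.79 at 21 dpi. Per kilobase, Itga7 held 37.3%, 35.3% and 36.4% of 12 alpha chains that can pair with beta 1 in HOMO mKO saline muscle. Its share was 57.9%, 52.3% and 45.7% after AAV at 3, 7 and 21 dpi. Itga6 went from 15.6%, 13.8% and 13.9% to 6.63%, 5.67% and 4.77%.

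Against WT muscle the Itga7 response was larger by 0.91 ± 0.25 (SE), adjusted p = 0.014 at 3 dpi and 1.15 ± 0.25 (SE), adjusted p = 0.000982 at 7 dpi, and that of Itga6 more negative by -0.70 (adjusted p = 0.0292) and -0.72 (adjusted p = 0.013). The Itga6 differences ended on leaving out samples (adjusted p up to 0.0975 without any 1 of 6 samples at 3 dpi, and adjusted p = 0.0686 without WT saline sample 3 at 7 dpi). With the sample number as a replicate block the 3 dpi differences had adjusted p-values of 0.0533 for Itga7 and 0.0715 for Itga6. WT muscle itself changed late, when Itga7 measured 55, 69.4, 76.8 and 65.4 in saline and 97, 57.9, 107 and 140 in AAV samples, which overlapped (0.53 (adjusted p = 0.0121); adjusted p = 0.0572 without WT saline sample 1 or 0.126 without WT AAV sample 4). Itga6 measured 47.1, 50.9, 61.5 and 48.6 and 33.6, 44, 31.4 and 20.9 in WT muscle at 21 dpi, without overlap (-0.70 (adjusted p = 0.000168)). In HET mKO muscle Itga7 measured 68.6, 82.5, 71.9 and 75.1 in saline and 169, 256, 206 and 222 in AAV muscle, without overlap. The log2 change of 1.49 ± 0.17 (SE), adjusted p = 2.98e-09 exceeded the WT response by 1.56 (adjusted p = 1.83e-05). The HET mKO and HOMO mKO responses of Itga7 differed by -0.41 with a 95% interval of -0.88 to 0.07, short of the threshold. The 7 dpi comparisons with WT muscle share the same WT samples.

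Itgb1, the beta chain shared by these receptors, rose with Itga7. It measured 233, 245, 314 and 219 in HOMO mKO saline and 294, 362, 421 and 300 in AAV muscle at 3 dpi. The next time point, 7 dpi, gave 300, 208, 239 and 241 and 326, 408, 269, 378 and 307. The last, 21 dpi, gave 278, 247, 235 and 262 and 339, 389, 377 and 354. The groups overlapped at 3 and 7 dpi and were apart at 21 dpi, and the log2 changes were 0.44 (adjusted p = 0.00269), 0.45 (adjusted p = 0.00104) and 0.51 (adjusted p = 0.000199). WT muscle at 21 dpi had an Itgb1 change of 0.34 (adjusted p = 0.0166), with adjusted p = 0.137 without WT AAV sample 4. In HET mKO muscle the values 179, 176, 176 and 180 in saline and 377, 434, 368 and 449 in AAV samples lay far apart, a log2 change of 1.18 ± 0.12 (SE), adjusted p = 5.98e-11. Itgb1 was the only member called between HOMO mKO and HET mKO responses (3.24% of all genes). The HOMO mKO response was smaller, with a difference of -0.74 ± 0.16 (SE), adjusted p = 0.00319. The saline mean was 247 ± 38.5 (SD, n = 4) in HOMO mKO and 178 ± 1.94 (SD, n = 4) in HET mKO muscle at 7 dpi, while the AAV means were 338 and 407. Counting from WT responses, 8 members were called in HET mKO muscle (20.2% of all genes), Itgb1 by 1.23 (adjusted p = 1.22e-06).

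The other laminin-binding chains, Itgb4 and Itga3, are known from epithelium, nerve sheath and vessel wall. Itgb4, the partner of Itga6, measured 5.47, 9.24, 7.45 and 7.75 in HOMO mKO saline and 5.27, 2.74, 2.11, 4.75 and 3.38 in AAV muscle at 7 dpi, without overlap (-0.90 ± 0.20 (SE), adjusted p = 0.000285 on the log2 scale). Its change was -0.73 (adjusted p = 0.00542) at 3 dpi, -0.47 (adjusted p = 0.0509) at 21 dpi, just outside the threshold, and -1.05 (adjusted p = 7.93e-05) in WT muscle at 21 dpi. The 7 dpi responses of HOMO mKO and WT muscle differed by -1.12 (adjusted p = 0.00677). Itga3 was called in the WT comparison at 21 dpi only, with a log2 change of -0.46 (adjusted p = 0.0187) (adjusted p = 0.0708 without WT saline sample 1 or 0.0853 without WT AAV sample 4). Of 5 endothelial markers 3, 4 and 5 were lower at 3, 7 and 21 dpi in HOMO mKO muscle, and of 5 Schwann cell markers 1, 3 and 0. Beside these and the next counts, 17.2%, 22.5% and 29.6% of all genes were lower and 17.4%, 20.6% and 29.7% higher. Of 3 satellite cell markers 1, 0 and 0 were lower and 0, 0 and 1 higher, with summed levels of 25.6 to 31.1 in saline and 28.1 to 32.8 in AAV muscle at 7 dpi. Of 3 epithelial markers 1 was in the table and was too low to be tested, at 0.0654 to 0.368 in saline and 0.777 to 1.75 in AAV muscle at 21 dpi. The summed endothelial level was 348 to 389 in HOMO mKO saline and 195 to 247 in AAV muscle at 7 dpi and 285 to 348 and 125 to 218 at 21 dpi. The summed Schwann cell level was 64 to 93 and 33.4 to 68.8 at 7 dpi, and the part of these cell types in Itga6 and Itgb4 was not tested.

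**Figure D4:**
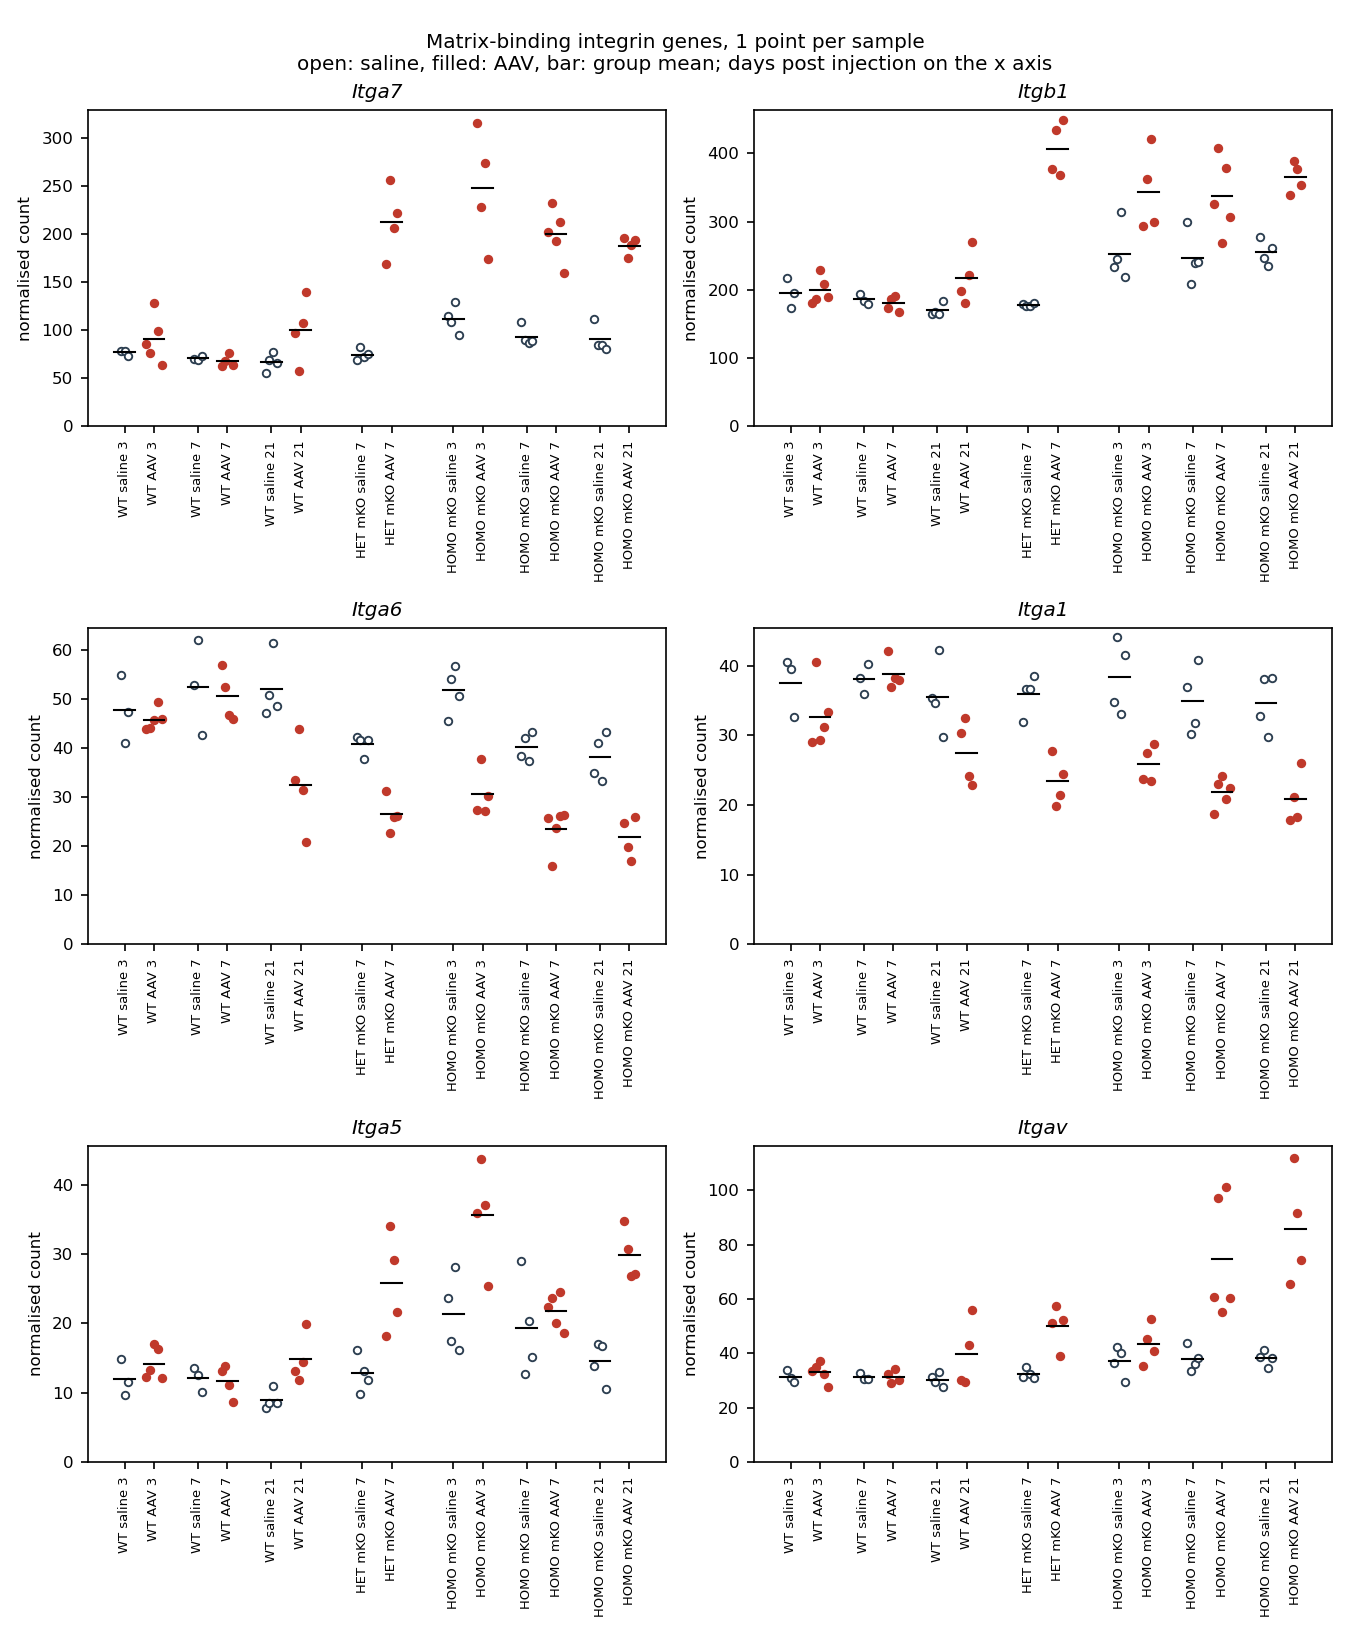
Normalised counts (linear axes from 0) of 6 matrix-binding integrin genes in each sample, by genotype, treatment and days post injection; open points are saline, filled points AAV, and bars are group means. In HOMO mKO muscle Itga7 AAV points lie above and Itga6 and Itga1 AAV points below the saline points of the same day on all 3 days, and Itgav AAV points lie above saline at 7 and 21 dpi.

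Of the collagen-binding chains Itga1 fell on all 3 days in HOMO mKO muscle and Itga11 at 3 dpi. Itga1, a collagen IV receptor of vessel wall, fibroblasts and immune cells, measured 34.8, 44.1, 33.1 and 41.5 in HOMO mKO saline and 23.8, 27.4, 23.4 and 28.8 in AAV muscle at 3 dpi. By 7 dpi the samples read 37, 30.2, 31.8 and 40.9 and 18.7, 23, 24.2, 20.8 and 22.4. By 21 dpi they read 32.8, 38.1, 29.7 and 38.3 and 17.9, 21.1, 18.2 and 26. No AAV sample reached the saline range on any day, and the log2 changes were -0.55, -0.65 and -0.72 ± 0.12 (SE), adjusted p = 2.47e-06. Itga1 fell in WT muscle at 21 dpi too (-0.36 (adjusted p = 0.0158)). That call ended on leaving out samples (adjusted p up to 0.0928 without any 1 of 3 samples). Itga1 also fell in HET mKO muscle (-0.60 (adjusted p = 0.000107)), where saline and AAV samples were apart. Both 7 dpi responses were more negative than that of WT muscle, by -0.68 (adjusted p = 0.00566) for HOMO mKO and -0.63 (adjusted p = 0.0105) for HET mKO. Itga11, a fibrillar collagen receptor of fibroblasts, fell at 3 dpi only among the HOMO mKO comparisons, from 5.88, 6.23, 6.26 and 4.38 in saline to 2.61, 3.76, 2.96 and 2.18 in AAV muscle (-0.79 ± 0.20 (SE), adjusted p = 0.00143). This response differed from that of WT muscle by -1.10 (adjusted p = 0.00907). At 7 dpi its change was -0.08 (adjusted p = 0.745) in HOMO mKO and 0.41 (adjusted p = 0.0903) in HET mKO muscle. In HET mKO muscle the fit with sample number as a replicate block within genotype and day gave an adjusted p of 0.0335. Fibroblast markers moved in both directions at 3 dpi in HOMO mKO muscle, 1 of 5 higher (Col1a1, 1.33) and 1 lower (Dcn, -0.77). Of all genes 17.4% were higher and 17.2% lower there. Itga10 was low, with group means of 1.04 to 1.83, and passed no test.

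Receptors of fibronectin, vitronectin, tenascin and latent TGF-beta changed on different days. Itgav, the alpha chain of the vitronectin and TGF-beta-activating receptors, measured 36.5, 42.3, 40.1 and 29.6 in HOMO mKO saline and 35.2, 45.2, 52.7 and 41 in AAV muscle at 3 dpi, which overlapped. At 7 dpi it measured 43.9, 33.3, 35.9 and 38.3 and 60.6, 97.3, 55, 101 and 60.2. At 21 dpi it measured 38.5, 41.3, 34.7 and 38.2 and 65.4, 112, 91.7 and 74.2, so that AAV samples stood above saline samples on both later days. The log2 changes were 0.22 (adjusted p = 0.303), 0.92 ± 0.15 (SE), adjusted p = 5.18e-06 and 1.12 ± 0.16 (SE), adjusted p = 9.37e-08. Itgav was the 1 member whose response grew past the threshold from 3 to 7 dpi (0.70 (adjusted p = 0.0492); 5.96% of all genes; adjusted p up to 0.119 without any 1 of 11 samples). It was also the 1 member called between HOMO mKO and WT responses at 21 dpi (0.79 (adjusted p = 0.0303); adjusted p up to 0.105 without any 1 of 7 samples), after a difference of 0.92 (adjusted p = 0.00445) at 7 dpi. Itga5, the fibronectin receptor chain, measured 23.6, 17.4, 28.2 and 16.1 in HOMO mKO saline and 36, 43.8, 37.1 and 25.4 in AAV muscle at 3 dpi, with overlap. At 21 dpi it measured 13.9, 17.1, 16.7 and 10.6 and 34.8, 30.8, 26.9 and 27.2, without. Its log2 changes were 0.72 (adjusted p = 0.00421), 0.23 (adjusted p = 0.343) and 1.01 (adjusted p = 2.88e-05) over the 3 days, and 0.94 (adjusted p = 0.000174) in HET mKO muscle. WT muscle at 21 dpi had an Itga5 change of 0.66 (adjusted p = 0.00681), with adjusted p = 0.0544 without WT AAV sample 4. Itgb5, a beta partner of Itgav, measured 91, 78.7, 72 and 84.3 in saline and 53.7, 47.9, 47.6 and 53.5 in AAV muscle at 21 dpi. The fall was -0.67 ± 0.12 (SE), adjusted p = 4.34e-06, while its 7 dpi change was -0.12 (adjusted p = 0.385). Itgb5 was also called lower in HET mKO muscle (-0.42 (adjusted p = 0.00413)) and in WT muscle at 21 dpi (-0.33 (adjusted p = 0.022)). The WT call of Itgb5 ended with quantile normalization (adjusted p = 0.124) and on leaving out samples (adjusted p up to 0.16 without any 1 of 3 samples). Itgb3, another partner of Itgav, was called with 0.52 and 0.62 at 7 and 21 dpi. Quantile normalization ended both calls (adjusted p = 0.212 and 0.351), as did leaving out samples (adjusted p up to 0.125 without any 1 of 7 samples, and adjusted p = 0.0844 without HOMO mKO saline sample 4 or 0.111 without HOMO mKO AAV sample 1). Itgb3 rose by 0.92 (adjusted p = 0.00104) in WT muscle at 21 dpi, without overlap, and by 0.88 (adjusted p = 0.00165) in HET mKO muscle, where samples overlapped. Between 7 and 21 dpi the HOMO mKO response was called different for 8 members (13.8% of all genes), among them Itga5 (0.78; adjusted p up to 0.157 without any 1 of 10 samples) and Itgb5 (-0.55; adjusted p = 0.051 without HOMO mKO saline sample 1). Of the remaining chains Itgb6 changed by 0.36 (adjusted p = 0.0433) and 0.38 (adjusted p = 0.0198) at 3 and 21 dpi and Itga8 by -0.56 (adjusted p = 0.0138) at 3 dpi, with overlapping samples (adjusted p up to 0.178 without any 1 of 6 samples, adjusted p up to 0.102 without any 1 of 3 samples, and adjusted p = 0.0767 without HOMO mKO AAV sample 1). Itgb8, at 1.21 and 0.946 in saline and AAV muscle at 3 dpi, was not called.

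Itga9 differed between genotypes without the protease. Itga9, a receptor chain for tenascin C and osteopontin, measured 9.99, 7.37 and 8.35 in WT and 19.2, 13.2, 27.2 and 15.8 in HOMO mKO saline muscle at 3 dpi. At 7 dpi WT muscle had 6.6, 7.14 and 8.52 and HOMO mKO muscle 19.2, 15.1, 23 and 22.7. At 21 dpi WT muscle had 5.9, 6.31, 5.78 and 6.67 and HOMO mKO muscle 21.1, 14.4, 18.9 and 13.2. Every HOMO mKO saline sample lay above every WT saline sample of its day. The log2 differences were 1.01 (adjusted p = 0.0148), 1.31 (adjusted p = 0.000884) and 1.30 (adjusted p = 0.000165) at 3, 7 and 21 dpi. The 3 dpi call of Itga9 ended on leaving out samples (adjusted p up to 0.141 without any 1 of 3 samples). In all, 2, 1 and 2 members were called between HOMO mKO and WT saline muscle at 3, 7 and 21 dpi, beside 2.28%, 2.08% and 3.32% of all genes. The others were Itga5 at 3 dpi (0.76 (adjusted p = 0.0442); adjusted p up to 0.346 without any 1 of 4 samples) and Itgb1 at 21 dpi (0.59 (adjusted p = 0.000869)). HET mKO saline muscle at 7 dpi had 0 called members by limma, beside 0.200% of all genes, and 4 members at an unadjusted p under 0.05. Over all genes edgeR called 13 there and DESeq2 62. The HET mKO saline difference was 0.00 for Itga9, with a 95% interval of -0.49 to 0.50. Itga9 does not lie on the chromosome of Ttn, the titin gene. Of the members near Ttn on chromosome 2, Itga4 (2.3 Mb away), Itga6 (4.8 Mb), Itgav (6.7 Mb) and Itgb6 (16.0 Mb) were not called between HOMO mKO and WT saline muscle in the main limma fit. At 21 dpi, though, every HOMO mKO saline sample of Itga6 lay below every WT saline sample. On that day a pseudocount of 4 and DESeq2 each called 1 member lower in HOMO mKO saline muscle, and fitting only the groups compared called 2. Those members are not named here.

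After AAV the level of Itga9 changed in both directions. Itga9 measured 8.27, 14.3, 13 and 11.6 in HOMO mKO AAV muscle at 3 dpi, 21, 23.5, 12.2, 34.4 and 18.4 at 7 dpi and 27.4, 47.9, 46.2 and 30.2 at 21 dpi. Its log2 change against saline was negative at 3 dpi, -0.61 (adjusted p = 0.033) with overlapping samples (adjusted p up to 0.172 without any 1 of 3 samples), 0.07 (adjusted p = 0.819) at 7 dpi, and positive at 21 dpi, 1.10 (adjusted p = 5.57e-05), where the groups were apart. The responses at 21 and 7 dpi differed by 1.03 (adjusted p = 0.0216), adjusted p up to 0.0612 without any 1 of 4 samples. In HET mKO muscle Itga9 measured 9.72, 5.53, 7.36 and 7.5 in saline and 16.7, 17.2, 14.5 and 19.7 in AAV samples (1.09 (adjusted p = 0.000145)). Both HET mKO groups of Itga9 were apart. The HET mKO response exceeded the WT response by 1.06 (adjusted p = 0.0195) (adjusted p = 0.0552 without WT saline sample 3).

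**Figure D5:**
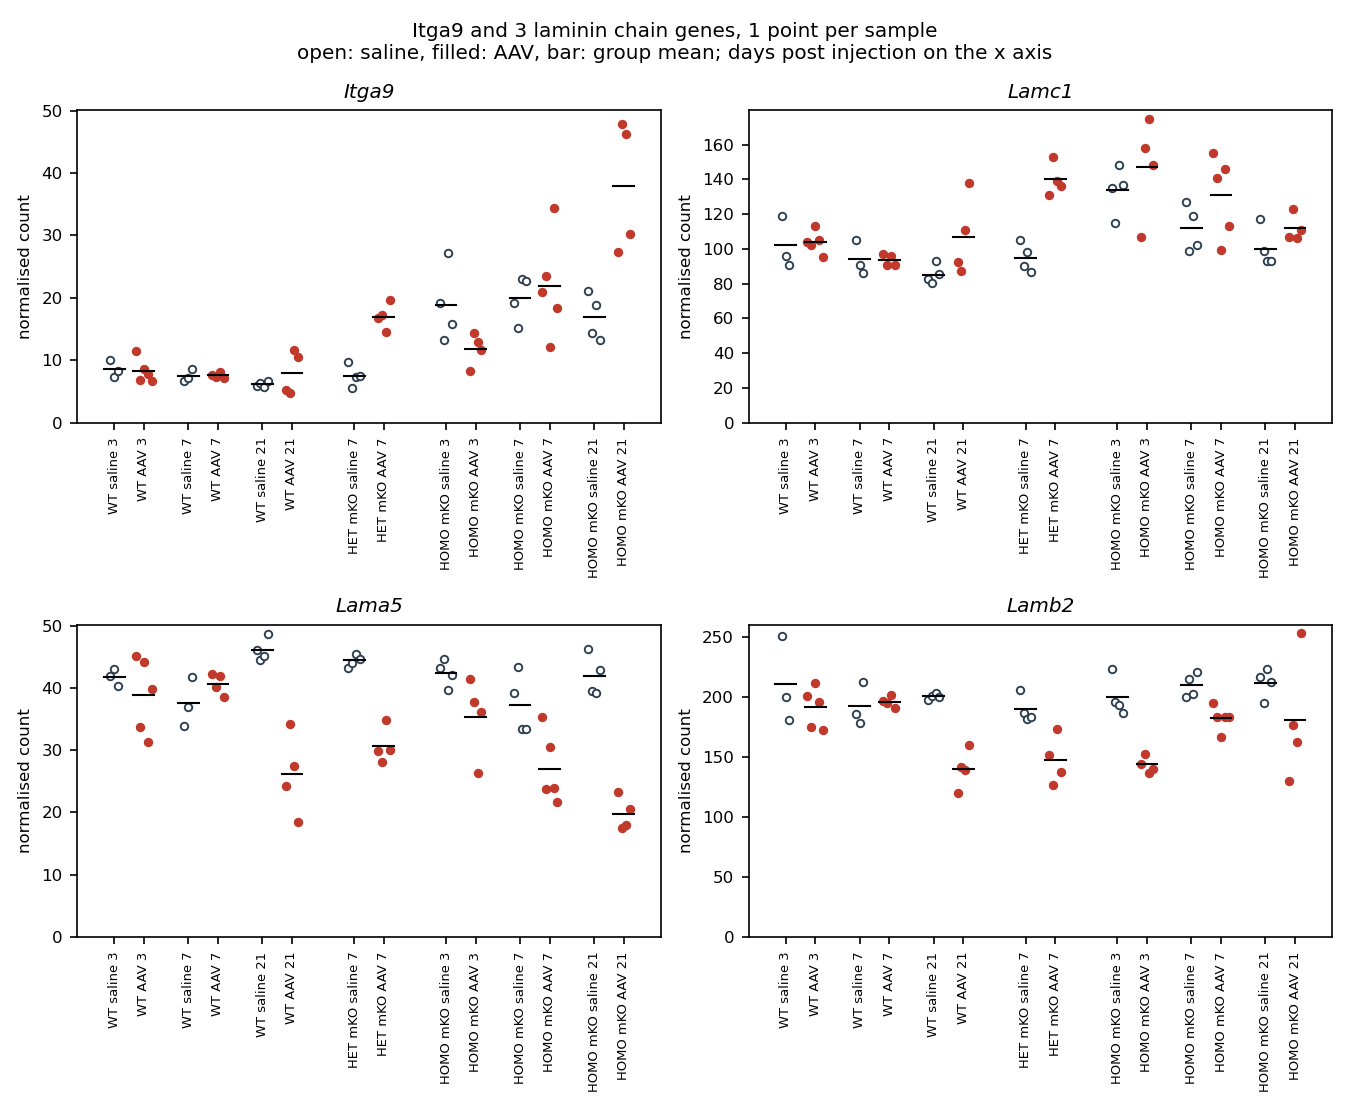
Normalised counts (linear axes from 0) of Itga9, Lamc1, Lama5 and Lamb2 in each sample, by genotype, treatment and days post injection; open points are saline, filled points AAV, and bars are group means. HOMO mKO saline points of Itga9 lie above the WT saline points on all 3 days, and Lama5 is lowest in HOMO mKO AAV muscle at 21 dpi (mean 19.8).

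Of 8 laminin genes 0 were higher and 4 lower at 3 dpi in HOMO mKO muscle, 0 and 1 at 7 dpi, and 0 and 3 at 21 dpi. Over all genes 17.4%, 20.6% and 29.7% were higher and 17.2%, 22.5% and 29.6% lower on these days. The median log2 change of the laminins was -0.36 at 3 dpi, -0.06 at 7 dpi and -0.22 at 21 dpi, beside medians over all genes of -0.01, -0.01 and 0.00. Lama5, the alpha chain of vessel and synaptic basement membrane, measured 39.1, 43.3, 33.4 and 33.4 in HOMO mKO saline and 35.4, 23.8, 30.5, 23.9 and 21.6 in AAV muscle at 7 dpi, with overlap. At 21 dpi the values 46.2, 39.5, 39.1 and 42.8 and 23.3, 17.5, 18 and 20.5 were apart. The log2 changes were -0.46 (adjusted p = 0.00228) and -1.05 ± 0.13 (SE), adjusted p = 3.58e-09, and -0.83 (adjusted p = 2.24e-06) in WT muscle at 21 dpi. Lama5 fell alongside the endothelial markers, whose part in it was not tested. Lama2, the alpha chain of the muscle fibre basement membrane, measured 46.9, 41.8, 59.8 and 62.5 in saline and 20.2, 41.2, 35.8 and 46 in AAV muscle at 3 dpi (-0.59 (adjusted p = 0.0195)), with overlap. Its later changes were -0.12 (adjusted p = 0.648) and -0.15 (adjusted p = 0.545). The 3 dpi call of Lama2 ended on leaving out samples (adjusted p up to 0.19 without any 1 of 3 samples). Lama4, of vessel and fibre basement membrane, measured 32.5, 30.8, 34.1 and 33.5 and 22.8, 32.9, 24.3 and 22 at 3 dpi (-0.36 (adjusted p = 0.0119)) and changed by -0.29 (adjusted p = 0.0294) at 21 dpi (adjusted p up to 0.11 without any 1 of 3 samples). The 3 dpi samples of Lama4 overlapped, and fitting only the groups compared gave an adjusted p of 0.0505. Lama3, an epithelial chain at 2.28 in saline and 1.08 in AAV muscle at 3 dpi, changed by -0.63 (adjusted p = 0.0135), adjusted p = 0.0762 without HOMO mKO saline sample 3 or 0.0519 without HOMO mKO AAV sample 3.

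Among beta and gamma chains Lamb2, the beta chain of mature fibre and synaptic laminin, measured 224, 196, 194 and 187 in HOMO mKO saline and 144, 153, 137 and 140 in AAV muscle at 3 dpi. The groups were apart, with a log2 change of -0.48 ± 0.11 (SE), adjusted p = 0.000628. Lamb2 fell also in WT muscle at 21 dpi (-0.52 (adjusted p = 0.000154)) and in HET mKO muscle (-0.37 (adjusted p = 0.00556)). At 21 dpi in HOMO mKO muscle its change of -0.27 (adjusted p = 0.0307) depended on the scaling. There quantile normalization gave 0.01 (adjusted p = 0.924) and edgeR an adjusted p of 0.103 (adjusted p up to 0.317 without any 1 of 5 samples). On CPM the highest group mean of Lamb2 was that of HOMO mKO AAV muscle at 21 dpi. Lamb1, the beta chain of most other laminins, was called higher in WT muscle at 21 dpi (0.50 (adjusted p = 0.00792); adjusted p = 0.0783 without WT AAV sample 4) and in HET mKO muscle (0.45 (adjusted p = 0.0156); adjusted p = 0.0813 without HET mKO saline sample 4). It changed by -0.36 (adjusted p = 0.0607), 0.14 (adjusted p = 0.443) and 0.01 (adjusted p = 0.954) in HOMO mKO muscle. Lamb1 made up 8.3% of the beta chain level per kilobase in HET mKO saline and 13.9% in AAV muscle, and 7.83% and 14.8% in WT muscle at 21 dpi. Lamc1, the gamma chain of nearly all muscle laminin, rose in HET mKO muscle (0.56 (adjusted p = 0.000331)) from 105, 90.2, 98.1 and 86.5 to 131, 153, 139 and 136, and changed by 0.15 (adjusted p = 0.286) in HOMO mKO muscle at 21 dpi. It was called higher in WT muscle at 21 dpi (0.31 (adjusted p = 0.0415)). That call ended on leaving out samples (adjusted p up to 0.286 without any 1 of 5 samples). Lamb3, an epithelial chain, was not called in any comparison.

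Partners of the integrins were read from 4 lists, whose counts stand beside 17.4%, 20.6% and 29.7% of all genes higher and 17.2%, 22.5% and 29.6% lower at 3, 7 and 21 dpi. Of 20 tested genes of the adhesion complex, 6 were higher and 3 lower at 3 dpi in HOMO mKO muscle, 4 and 5 at 7 dpi, and 10 and 5 at 21 dpi (medians of 0.18, 0.10 and 0.25). Fermt3, the kindlin of blood cells, rose by 1.92, 1.44 and 3.15 over the 3 days, while Fermt2, the kindlin of other tissues, fell by 0.87 at 7 dpi and by 0.94 at 21 dpi. Lims2, an adaptor that binds integrin-linked kinase, fell by 0.87, 0.81 and 1.30, and the kinase gene Src rose by 1.55 at 21 dpi. Of 9 basement membrane genes 0 were higher and 2 lower at 3 dpi, 1 and 0 at 7 dpi, and 1 and 1 at 21 dpi. The nidogen gene Nid1 changed by -0.45 and 0.52 at 3 and 7 dpi, and Col18a1 by 1.28 at 21 dpi. Of 13 integrin ligands outside the basement membrane 8 were higher and 1 lower at 3 dpi, 11 and 1 at 7 dpi, and 11 and 1 at 21 dpi. Spp1 (osteopontin) rose by 4.61 at 3 dpi. Vcam1 and Icam1, the ligands of Itga4 and of beta 2 integrins, rose by 2.65 and 2.40 at 21 dpi, whereas vitronectin (Vtn) fell by 0.47, 0.54 and 0.86. Of 9 other links of the fibre surface, the dystrophin complex and its relatives, 0 were higher and 5 lower at 3 dpi, 1 and 2 at 7 dpi, and 1 and 6 at 21 dpi. The sarcoglycan gene Sgcb fell by 0.30, 0.36 and 0.34. Mature fast fibre markers were lower in 5 of 6 on each day, with a summed level of 112271 to 131353 in saline and 40735 to 84670 in AAV muscle at 21 dpi. Regenerating fibre markers were higher in 1, 3 and 3 of 3 at 3, 7 and 21 dpi. Their part in the member levels was not tested.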

How the data were processed

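RNA was measured by bulk sequencing in 56 tibialis anterior samples, grouped by their titles into 14 groups. Per the labels' protocols the libraries were made with a directional kit, and the sources used here do not give the strand setting of the counts. Tools named in the submitters' processing notes are RSEM, Bowtie, FastQC and limma, with no version, on the GRCm38 genome. The authors deposited a normalised signal: each value is a number of reads plus 0.5, divided by a library size and scaled to a per-million basis, and whole reads were recovered for 100.0% of 832776 values within 0.02 reads. RSEM divides reads shared between similar genes by estimation, and Itgam and Itgax are related in sequence.

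From these values log2(value + 1) was fitted with limma 3.58.1 (R 4.3.3, intensity trend, 1 mean per group over all 56 samples, a mean of 1 CPM or more per gene, Benjamini-Hochberg adjustment over 13017 genes, threshold 0.05). The offset of 1 makes the changes of weakly expressed genes appear smaller. Alternatives were edgeR 4.0.16 and DESeq2 1.42.0 on the recovered reads, other pseudocounts and filters, quantile normalization, fitting only the groups compared, a replicate block and leaving out each sample. Scripts were tested on simulated data. One gene that fits the symbol rule is not reported here and is left out of all counts of members. Levels per kilobase use exon lengths of GENCODE for GRCm38. The members, gene lists and the rule for genes described in every sample (the leukocyte integrins and up to 4 per class with the smallest p in HOMO mKO muscle) were chosen with earlier results of these data known. Sample numbers count as pairing samples only in HOMO mKO muscle at 21 dpi and HET mKO muscle at 7 dpi, where every pair of equal number had deviations correlated above 0.1, while 12 of 26 pairs did so in all.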

Additional observations from a re-analysis of the deposited data

Results flagged for a closer look

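Within groups of 4 or 5 samples, 10 of 360 sets of values (2.8%) held 1 sample far from the others by Dixon's criterion, which chance gives in about 1 of 20 groups, so the share lay below that of chance. Itgal measured 1.65 in HOMO mKO saline sample 4 at 7 dpi (highest; nearest 0.936). Itgam measured 13.8 in HOMO mKO AAV sample 5 at 7 dpi (highest; nearest 9.85). Itgax measured 0.306 in WT saline sample 2 at 21 dpi (lowest; nearest 0.672). Itga6 measured 16 in HOMO mKO AAV sample 2 at 7 dpi (lowest; nearest 23.8) and 37.8 in HET mKO saline sample 3 at 7 dpi (lowest; nearest 41.6). Itga7 measured 109 in HOMO mKO saline sample 1 at 7 dpi (highest; nearest 89.7) and 112 in HOMO mKO saline sample 1 at 21 dpi (highest; nearest 85). Itga10 measured 2.9 in WT AAV sample 4 at 3 dpi (highest; nearest 1.52). Itga8 measured 1.64 in WT saline sample 2 at 21 dpi (lowest; nearest 2.71). Itgb8 measured 0.78 in HOMO mKO saline sample 4 at 3 dpi (lowest; nearest 1.31). No single library held more than 2 of these values, and WT saline sample 2 at 21 dpi held 2.

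Differences between responses that passed the threshold in the limma fit, on the log2 scale, numbered 31. For the HOMO mKO AAV response at 21 dpi minus 7 dpi these were Itgal (2.63), Itgax (2.86), Itgb2 (2.14), Itgb7 (2.13), Itga5 (0.78), Itga9 (1.03), Itgb5 (-0.55) and Lama5 (-0.58). For the HOMO mKO minus WT AAV response at 3 dpi these were Itgam (2.25), Itga6 (-0.70), Itga7 (0.91) and Itga11 (-1.10). For the HOMO mKO minus WT AAV response at 7 dpi these were Itgam (1.61), Itga6 (-0.72), Itga7 (1.15), Itgb4 (-1.12), Itgb1 (0.50), Itga1 (-0.68), Itgav (0.92) and Lama5 (-0.58). For the HET mKO minus WT AAV response at 7 dpi these were Itga7 (1.56), Itgb1 (1.23), Itga1 (-0.63), Itga5 (0.99), Itga9 (1.06), Itgb3 (0.94), Lama5 (-0.64) and Lamc1 (0.56). For the HOMO mKO minus HET mKO AAV response at 7 dpi this was Itgb1 (-0.74). For the HOMO mKO minus WT AAV response at 21 dpi this was Itgav (0.79). For the HOMO mKO AAV response at 7 dpi minus 3 dpi this was Itgav (0.70). Leaving out samples ended further calls among these. They were, for HOMO mKO minus WT at 7 dpi Itgb1 (adjusted p up to 0.0833 without any 1 of 5 samples) and Lama5 (0.0784 without WT saline sample 1 or 0.0614 without HOMO mKO saline sample 2), for HET mKO minus WT Itgb3 (up to 0.108, 8 samples), Lamc1 (up to 0.0899, 3 samples) and Lama5 (0.0543 without WT saline sample 1), and for HOMO mKO at 21 minus 7 dpi Lama5 (up to 0.0571, 7 samples). Itgb3 in HET mKO minus WT was also ended by edgeR (adjusted p = 0.0578), quantile normalization (0.0693), a pseudocount of 4 (0.0539) and fitting only the groups compared (0.0522), and the last setting ended Lama5 at 21 minus 7 dpi (0.0846). The comparisons with WT muscle at 7 dpi share the WT samples, and those between days share the HOMO mKO samples of 7 dpi.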

How the results depend on the processing

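Of 120 called member results, 78 were ended by no alternative, 39 by leaving out a sample and 24 by another setting. The counts of called members stayed within 1.5 times under every alternative for the AAV responses of HOMO mKO muscle and of HET mKO muscle. Leaving out 1 sample gave 10 to 20 called members in WT muscle at 21 dpi, 3 to 7, 5 to 9 and 0 to 3 for the HOMO mKO minus WT responses at 3, 7 and 21 dpi, 5 to 9 for HET mKO minus WT, 1 to 2 for HOMO mKO minus HET mKO, 0 to 3 and 5 to 9 for the HOMO mKO response between 3 and 7 dpi and between 7 and 21 dpi, and 0 to 2, 1 to 2 and 2 to 3 for HOMO mKO against WT saline muscle at 3, 7 and 21 dpi. Fitting only the groups compared gave 0 called members for HOMO mKO minus WT at 21 dpi, 14 for HET mKO minus WT, 0 and 5 for the HOMO mKO response between days, and 7 for saline muscle at 21 dpi. A pseudocount of 0.25 and the absence of a filter each gave 0 for the HOMO mKO response between 3 and 7 dpi, DESeq2 gave 4 for saline muscle at 21 dpi, and quantile normalization gave 2 for HOMO mKO minus WT at 21 dpi. Quantile normalization moved the median of all genes by -0.116 at 21 dpi in HOMO mKO muscle and turned the direction of Lamb2 there (0.01, adjusted p = 0.924). The cause was not tested, except that smaller fits and filters hold fewer samples or genes. With sample number as a replicate block, 2 members were called for HOMO mKO minus WT at 3 dpi; where the numbers count as pairing, the block within genotype and day, added after seeing the data, gave 19 calls in HOMO mKO muscle at 21 dpi and 18 in HET mKO muscle (Itga11 added), and in these 2 comparisons it changed no other call. Members with few reads, such as Itgb8, Lama3 and Itga10, are limited by counting error.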
